A study of Homo sapiens with 5 samples.

Results

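The genes described here are 8 immune checkpoint ligands, surface proteins through which a tumour cell restrains T cells, natural killer cells or macrophages. They are CD274, PDCD1LG2, CD276, VTCN1, NECTIN2, PVR, CD47 and NT5E. They were chosen by name, and all transcripts that the GENCODE v44 annotation assigns to them were summed per gene. The 8 genes stand among 61220 genes matched in the tables. GENCODE v44 lists 60 transcripts for them, of which 54 were in the tables and 39 had at least 1 read. The other 6, all of PVR, were not analysed here. Together the 8 genes held 7901 reads over 5 libraries.

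The libraries were made from RNA of NCI-H1975 and HCC827, established human cell lines of lung adenocarcinoma. Their RNA was mixed by mass, with libraries called after the ratio of NCI-H1975 to HCC827. HCC827 made up 0% of the 100:0 library, 25% of 75:25, 50% of 50:50, 75% of 25:75 and 100% of 0:100. Per the labels, synthetic spike-in transcripts (sequins) went into both RNAs, as mix A for NCI-H1975 and mix B for HCC827. The tables go against this for HCC827, with 5475, 4678, 2830, 1269 and 0 sequin reads from 100:0 to 0:100, and no result here uses them. Poly(A) RNA was copied into cDNA, amplified by PCR and read on a nanopore PromethION. Each ratio had 1 library and each line 1 RNA preparation, so the scatter between libraries does not cover differences between cultures. The labels name no treatment of the cells.

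Checkpoint ligands pair with inhibitory receptors on immune cells. CD274 (PD-L1) and PDCD1LG2 (PD-L2) bind PD-1 on T cells, and interferon gamma from T cells is a known inducer of CD274. CD276 (B7-H3) and VTCN1 (B7-H4) belong to the same B7 family, and their inhibitory receptors are less well defined. PVR (CD155) and NECTIN2 (CD112) are nectin-like adhesion proteins that bind TIGIT and the activating receptor CD226. CD47 binds SIRPA on macrophages and holds back phagocytosis. NT5E (CD73) is the surface enzyme that turns AMP into adenosine, which damps T cells through adenosine receptors.

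Library totals ran from 2932250 to 4058751 reads. Of 16 marker genes of immune cells, 10 had no read in any library, among them PTPRC, CD3E and TYROBP. The summed level of the 16 ran from 6.41 to 16.7 CPM, lowest in 0:100 and highest in 100:0, and the 3 that could be tested had slopes below 0 that did not pass. Their part in the results was not tested. Of 8 marker genes of lung adenocarcinoma lines, 7 rose along the series, against 23.5% of all genes tested, and 1 did not pass. That one, the epithelial marker EPCAM, was at 377 to 403 CPM in every library. The largest slopes were 2.96 for EGFR, 2.17 for KRT18 and 1.58 for KRT19. The read-weighted mean transcript length fell along the series from 2581 bases in 100:0 to 2180 bases in 0:100. Scaling by library totals instead of TMM moved the median slope of all genes from -0.035 to -0.446, so every slope below is relative to the TMM scale. Levels are given in CPM, a gene's reads for each 1000000 reads of the TMM-scaled library, with 95% exact Poisson intervals that cover counting error only.

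Of the 8 ligands, 5 were abundant and 3 were scarce. Levels of different genes were compared per kilobase of transcript. Over the libraries the median level per kilobase was 35.0 CPM for CD276, 34.0 for NT5E, 27.8 for PVR, 21.3 for CD47 and 18.9 for NECTIN2. Each of these genes overlapped the next one in its range over the libraries, so neighbours in this order are not separated. CD276 and NT5E at their lowest (32.9 and 32.5) were above CD47 (27.4) and NECTIN2 (22.1) at their highest. PVR at its lowest (23.4) was above NECTIN2 at its highest. NECTIN2 at its lowest (16.3) was above CD274 at its highest (3.05). The medians of the scarce genes were 1.24 for CD274, 0.919 for VTCN1 and 0.369 for PDCD1LG2, and each range overlapped the next. CD274 at its lowest (0.927) was above PDCD1LG2 at its highest (0.857), both on few reads. The order depends on the length used, which was weighted by reads, at 2280 bases for CD276 and 4458 for CD47. Without division by length the medians were 119.5 CPM for NT5E, 114.8 for PVR, 95.0 for CD47, 79.7 for CD276 and 39.0 for NECTIN2. CD47 was then above CD276 in every library. Whether read counts grew with transcript length here was not tested.

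Whether a ligand differed between the lines was tested by how log2 expression changed with the HCC827 share over the 5 libraries (the slope), in edgeR's quasi-likelihood test with Benjamini-Hochberg adjustment over 13492 genes. A slope of 1 is a fitted doubling from pure NCI-H1975 to pure HCC827. Mixing by mass is linear in level and the slope is on the log2 scale. A large slope thus need not equal the log2 ratio of the pure libraries. A gene entered the test with at least 10 reads in at least 2 libraries, which 7 of the 8 ligands met. PVR and CD47 fell and NT5E rose, at an adjusted p under 0.05. These 3 of 7 stand against a background of 45.7% of all genes tested, 23.5% rising and 22.3% falling. The share among the ligands is thus near that of genes at large. Their median absolute slope was 0.48, against 0.66 over all genes. The other 4, CD274, CD276, VTCN1 and NECTIN2, did not pass. Levels that ran in order along the series were found for 1 of the 7, NT5E, against 28.5% of all genes tested. Of 24 ligand values in mixed libraries, 7 had counting intervals that did not reach the straight line between the pure libraries. With the DESeq2 Wald test only PVR was called, and with limma's fitmixture none. Over all 13492 genes the Wald test called 4791 and fitmixture 6191. In bulk RNA a higher level in each cell and a larger share of expressing cells cannot be told apart.

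**Figure D1:**
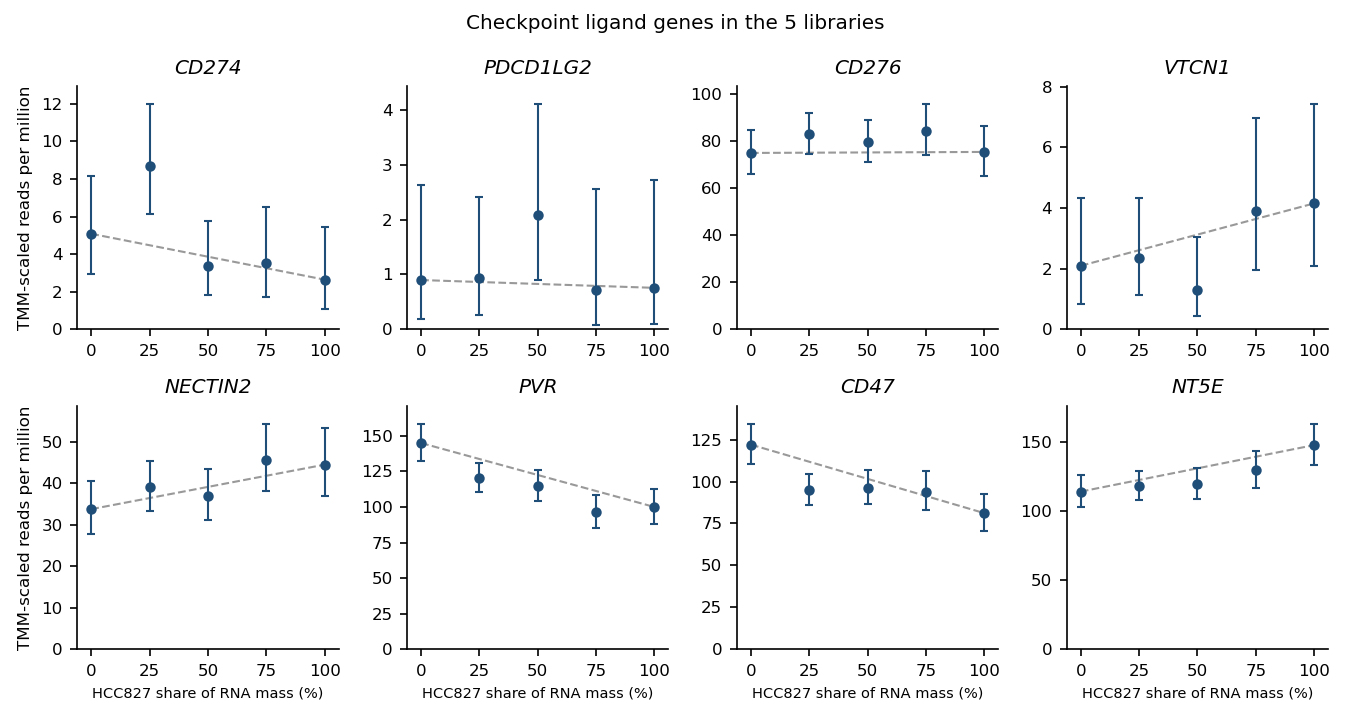
Level of each ligand in the 5 libraries, in TMM-scaled CPM, against the HCC827 share of RNA mass in percent. Points are single libraries, bars are 95% exact Poisson intervals and the dashed line joins the pure libraries; PVR and CD47 run downward, NT5E upward, and CD274, PDCD1LG2 and VTCN1 stay below 10 CPM.

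CD276, the most abundant B7 member, varied little across the series. It was at 75.0 CPM in 100:0, 83.0 in 75:25, 79.7 in 50:50, 84.4 in 25:75 and 75.5 in 0:100. The pure libraries had the lowest values and differed by less than their counting error, with a ratio of 0:100 to 100:0 of 1.01 (0.831 to 1.22). Its slope was 0.02 ± 0.14 (SE; adjusted p = 0.928), and under library totals it fell, with a slope of -0.39 (adjusted p = 0.0336).

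CD274, which encodes PD-L1, rested on 84 reads in all. There were 17 reads in 100:0, 37 in 75:25, 13 in 50:50, 10 in 25:75 and 7 in 0:100. In CPM these were 5.08, 8.70, 3.39, 3.55 and 2.64. The 75:25 library was the highest, and its interval (6.12 to 12.0) lay above the 4.47 that the line between the pure libraries gives. The ratio of the pure libraries was 0.520 (0.182 to 1.32) and its interval spans both directions. The slope of -1.33 ± 0.64 did not pass (adjusted p = 0.106). Without the 100:0 library it was -2.37 (adjusted p = 0.0242) and passed, as it did under library totals, with a slope of -1.74 (adjusted p = 0.0343).

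The reads of CD274 fell on 3 transcripts. CD274-202 encodes 290 codons, and CD274-201 (176 codons) skips exon 3 at chr9:5457079-5457420 (GRCh38, plus strand), which holds 342 coding bases. CD274-201 had 9, 17, 3, 8 and 3 reads from 100:0 to 0:100, and CD274-202 had 7, 11, 4, 2 and 3. In all these were 40 reads of the short form and 27 of the long one, too few for a test of usage. Both forms end almost together, at bases 5470566 and 5470554 of chromosome 9. How reads that do not reach exon 3 were divided between the forms is not given, so which was more frequent is not settled. The remaining reads, 1, 9, 6, 0 and 1, were of CD274-203, a fragment of 442 bases with no coding sequence annotated. The coding sequences part as follows, with the bases after the branch in capitals, to show what tells the forms apart.
CD274-202: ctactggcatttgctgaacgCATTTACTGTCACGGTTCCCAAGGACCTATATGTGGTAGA
CD274-201: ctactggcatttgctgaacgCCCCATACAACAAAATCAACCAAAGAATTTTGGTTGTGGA

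VTCN1 and PDCD1LG2 were near the limit of detection. VTCN1 had 7, 10, 5, 11 and 11 reads from 100:0 to 0:100, or 2.09, 2.35, 1.30, 3.90 and 4.15 CPM. The libraries with 75% or more HCC827 had the highest values, yet their intervals overlapped those of the others. Its slope of 1.14 ± 0.73 did not pass (adjusted p = 0.223). PDCD1LG2 had 3, 4, 8, 2 and 2 reads and was not tested, since no library reached 10 reads. Its highest value was in 50:50, at 2.08 CPM (0.900 to 4.11), and the pure libraries were at 0.897 and 0.755.

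PVR fell by 0.56 ± 0.13 on the log2 scale from NCI-H1975 to HCC827 (adjusted p = 0.00410). It was at 145.0 CPM in 100:0, 120.4 in 75:25, 114.8 in 50:50, 96.5 in 25:75 and 100.0 in 0:100. The 100:0 library was the highest, and its interval (132 to 159) did not reach that of any other library. The ratio of 0:100 to 100:0 was 0.690 (0.592 to 0.803). Without 100:0 the slope was -0.42 and did not pass (adjusted p = 0.0703). NECTIN2, which like PVR binds TIGIT and CD226, had the opposite sign without passing the test. Its levels were 33.8, 39.0, 37.0, 45.8 and 44.5 CPM, higher in both libraries with 75% or more HCC827 than in the other 3. Its slope was 0.41 ± 0.19 (adjusted p = 0.0911), the ratio of the pure libraries was 1.32 (1.01 to 1.72), and under library totals the slope was -0.0068.

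PVR was read as 4 main transcripts, of which PVR-202, PVR-203 and PVR-205 differ around the exon coding for its membrane anchor. PVR-205 holds exon 6, at chr19:44658742-44658900 (plus strand), whole. PVR-203 keeps its first 24 bases and PVR-202 none, and the forms without the anchor are known as secreted. PVR-201 is annotated as a target of nonsense-mediated decay, with a coding sequence of 44 codons. PVR-205 also ends further on, at base 44666162 of chromosome 19 against 44663583 for the others. The exon is printed here with the part that PVR-203 keeps in capitals.
PVR-205: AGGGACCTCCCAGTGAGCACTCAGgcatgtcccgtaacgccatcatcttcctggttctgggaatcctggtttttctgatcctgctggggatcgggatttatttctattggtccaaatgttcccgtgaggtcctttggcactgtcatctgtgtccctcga
In 100:0 the anchored PVR-205 made up 37.7% of PVR reads (95% Wilson interval 33.5 to 42.1), and in 0:100 it made up 40.8% (35.0 to 46.8). PVR-202 went from 21.4% to 20.8% and PVR-203 from 18.6% to 17.4%. These shares overlapped between the pure libraries. PVR-205 alone of the 4 has the later end, so reads from there may count for it with or without exon 6. Its share may thus mix 3′ end use with exon 6 use, and the balance of anchored and soluble forms cannot be read from it. By level, all 4 had negative slopes, and PVR-202 (-0.77 ± 0.26, adjusted p = 0.0306) and PVR-203 (-0.83 ± 0.25, adjusted p = 0.0140) fell. PVR-201 (-0.60 ± 0.25, adjusted p = 0.0643) and PVR-205 (-0.45 ± 0.19, adjusted p = 0.0696) did not pass. The call on PVR-202 was lost without 100:0 (adjusted p = 0.244) or 25:75 (adjusted p = 0.112), and that on PVR-203 without 0:100 (adjusted p = 0.112).

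NECTIN2 is also read in forms with different membrane ends. NECTIN2-201 (538 codons) and NECTIN2-202 (479 codons) part after the exon at chr19:44874330-44874478 (plus strand). The coding bases after that exon are in capitals.
NECTIN2-201: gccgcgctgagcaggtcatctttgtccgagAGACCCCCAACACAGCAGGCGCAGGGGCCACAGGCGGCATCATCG
NECTIN2-202: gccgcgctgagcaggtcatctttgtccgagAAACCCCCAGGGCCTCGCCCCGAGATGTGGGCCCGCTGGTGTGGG
NECTIN2-201 was the most read annotated form, at 47.8% in 100:0 and 50.8% in 0:100. NECTIN2-202 was at 18.6% (12.5 to 26.8) in 100:0 and 25.4% (18.4 to 34.0) in 0:100. Their slopes, 0.51 ± 0.26 and 0.56 ± 0.37, did not pass (adjusted p = 0.143 and 0.254). NECTIN2-203 (650 bases) and NECTIN2-205 (950 bases) held 15.1% and 11.2% of NECTIN2 reads over all libraries. Both end at base 44878938 of chromosome 19, beside the end of NECTIN2-202 at 44878941. Shorter reads of NECTIN2-202 cannot be told apart from them here, so its share may be understated. Their slopes did not pass (adjusted p = 0.923 and 0.574).

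CD47 fell by 0.48 ± 0.14 on the log2 scale (adjusted p = 0.0150). Its levels were 122.0 CPM in 100:0, 95.0 in 75:25, 96.4 in 50:50, 94.0 in 25:75 and 81.1 in 0:100. The 100:0 library stood above the rest, the 3 mixed libraries lay between 94.0 and 96.4, and 0:100 was the lowest. The 75:25 value was 15.0% under the line between the pure libraries, and its interval (85.9 to 104.7) did not reach the line at 111.8. The ratio of the pure libraries was 0.665 (0.561 to 0.786). The call rested on the ends of the series. Without 100:0 the slope was -0.26 (adjusted p = 0.303), and without 0:100 it was -0.46 (adjusted p = 0.0972). With a trend on transcript length removed it was -0.32 and did not pass (adjusted p = 0.0895).

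CD47 forms differ in the cytoplasmic tail through small alternative exons. The coding ends are given from the last shared exon, at chr3:108051939-108051970 (minus strand), with the bases after it in capitals up to the stop codon.
CD47-201: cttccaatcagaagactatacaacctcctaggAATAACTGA
CD47-205: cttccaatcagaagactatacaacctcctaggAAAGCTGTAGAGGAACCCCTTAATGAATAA
CD47-202: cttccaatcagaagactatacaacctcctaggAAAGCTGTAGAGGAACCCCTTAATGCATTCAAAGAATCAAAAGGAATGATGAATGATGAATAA
The short-tailed CD47-201 was the most read annotated form, with 195, 204, 169, 123 and 89 reads, or 47.8% of CD47 reads in 100:0 and 41.4% in 0:100. CD47-205, with the 25-base exon, had 41, 40, 45, 34 and 28 reads, and CD47-202, with exons of 25 and 33 bases, had 24, 20, 19, 7 and 13. Of these, CD47-201 fell, with a slope of -0.74 ± 0.19 (adjusted p = 0.00464). CD47-205 had a slope of -0.07 ± 0.32 (adjusted p = 0.886) and CD47-202 one of -0.87 ± 0.51 (adjusted p = 0.204). The listed lengths were 5228 bases for CD47-201, 538 for CD47-205 and 1285 for CD47-202. Reads from the longer 3′ part may thus have been counted for CD47-201 whatever their tail, so these counts need not separate the tails. A difference between the forms did not pass (usage test, adjusted p = 1). Without 100:0 or without 0:100 the fall of CD47-201 did not pass (adjusted p = 0.0769 and 0.0813). CD47-204, a transcript of 6796 bases with a retained intron, made up 25.5% of reads in 100:0 and 27.4% in 0:100. CD47-203, a transcript of 469 bases with an incomplete coding sequence, had 41, 29, 36, 26 and 25 reads. Its slope of -0.24 ± 0.38 did not pass (adjusted p = 0.663).

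NT5E was the ligand that rose with HCC827. Its levels were 114.2 CPM in 100:0, 118.2 in 75:25, 119.5 in 50:50, 129.5 in 25:75 and 147.9 in 0:100. The values ran in order, and the interval of 0:100 (134 to 163) did not reach those of the first 3 libraries. The slope was 0.35 ± 0.12 (adjusted p = 0.0339) and the ratio of the pure libraries was 1.30 (1.12 to 1.50). On library totals the levels were 132.5, 125.9, 120.1, 120.2 and 128.4, no longer in order, and the slope was -0.062 (adjusted p = 0.697). The rise is thus one relative to the TMM scale. Without the 0:100 library the slope was 0.22 and did not pass (adjusted p = 0.331), and it did not pass without 75:25 (adjusted p = 0.0824) or without 50:50 (adjusted p = 0.0534).

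**Figure D2:**
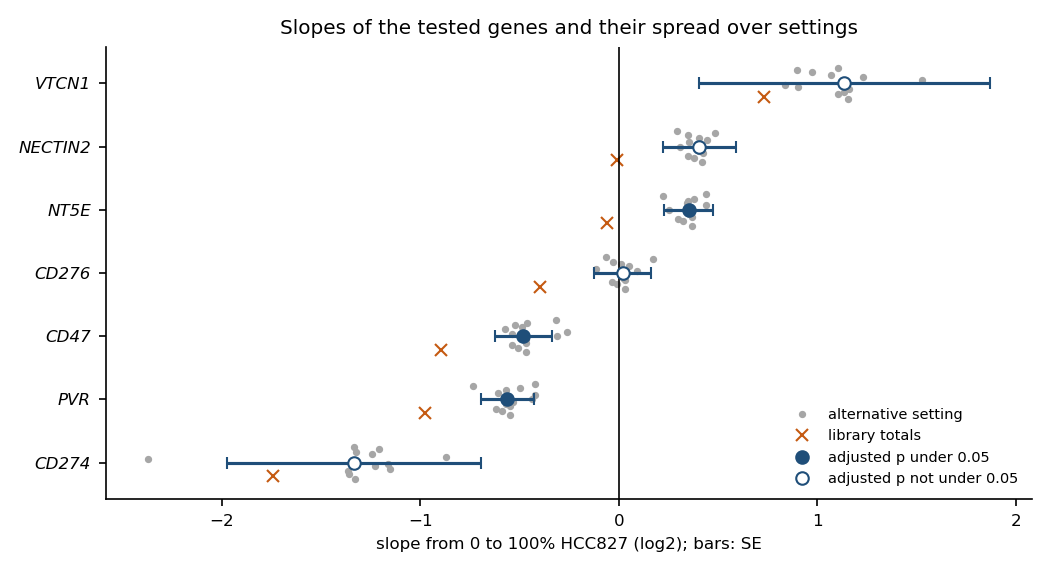
Slope of each tested ligand on the log2 scale from 0 to 100% HCC827, with SE bars, filled where the adjusted p is under 0.05. Grey points are the alternative settings and orange crosses are library totals, which shift every slope to the left and bring NT5E and NECTIN2 to near 0.

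Of the 3 NT5E transcripts tested, the one that rose was NT5E-202, the shortest with a complete coding sequence. It had 18, 29, 38, 37 and 48 reads from 100:0 to 0:100, or 5.38, 6.82, 9.90, 13.1 and 18.1 CPM. The values ran in order, with the highest more than 3 times the lowest. The slope was 1.73 ± 0.32 (adjusted p = 0.000393, over 31758 transcripts), and it passed without each library in turn and on library totals (slope 1.38, adjusted p = 0.00249). The share of NT5E reads went from 4.71% (3.0 to 7.33) in 100:0 through 5.76%, 8.28% and 10.1% to 12.2% (9.36 to 15.9) in 0:100. The full-length NT5E-201, with 168, 237, 198, 146 and 166 reads, had a slope of 0.15 ± 0.17 (adjusted p = 0.528). NT5E-203, with 196, 236, 220, 181 and 175 reads, had one of 0.17 ± 0.17 (adjusted p = 0.471). With NT5E-202 left out, the slope of the NT5E sum was 0.23 ± 0.13 and did not pass (adjusted p = 0.157).

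NT5E-202 is a truncated form. NT5E-201 has 9 exons and 574 codons, whereas NT5E-202 has 3 exons and 264 codons. Its last exon, at chr6:85471237-85471599 (plus strand), begins as the third exon of NT5E-201 and reads on past that exon's end into the intron, where it meets a stop codon. The bases after the branch are in capitals, with the stop codon closing NT5E-202.
NT5E-202: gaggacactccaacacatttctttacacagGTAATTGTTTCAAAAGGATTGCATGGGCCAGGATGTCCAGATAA
NT5E-201: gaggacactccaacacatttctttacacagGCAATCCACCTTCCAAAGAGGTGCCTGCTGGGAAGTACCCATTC
The transcript ends inside that intron. Its last 50 bases hold AATAAA or ATTAAA, the letters of the usual cleavage signals, as did those of 24 of the 26 ligand transcript ends examined. Of the 20 genomic bases after its end 8 are A, as many as after CD274-203 and more than after the other ends, and the median was 3.

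NT5E-203 has 524 codons and lacks exon 7 of NT5E-201, at chr6:85490508-85490657, a stretch of 150 coding bases that leaves the frame intact. The exon is in capitals within NT5E-201, beside the junction that replaces it.
NT5E-201: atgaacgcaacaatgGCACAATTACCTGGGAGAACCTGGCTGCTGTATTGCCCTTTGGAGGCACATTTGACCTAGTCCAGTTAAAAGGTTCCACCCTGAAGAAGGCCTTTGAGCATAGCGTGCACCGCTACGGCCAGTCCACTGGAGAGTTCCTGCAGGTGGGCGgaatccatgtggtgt
NT5E-203: atgaacgcaacaatggaatccatgtggtgt
By estimated counts NT5E-203 was about as frequent as the full-length form, at 51.3% (46.3 to 56.3) of NT5E reads in 100:0 and 44.6% (39.8 to 49.6) in 0:100. NT5E-201 and NT5E-203 end almost together, at bases 85495784 and 85495791 of chromosome 6. How reads that do not reach exon 7 were divided between them is not given, and the intervals do not cover that division. The intervals of the pure libraries overlapped.

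**Figure D3:**
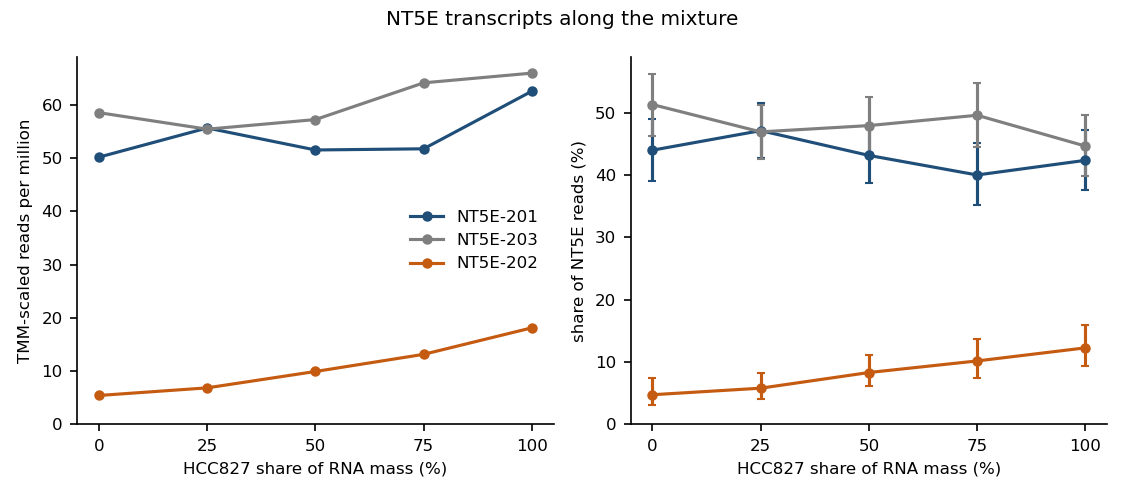
Left, level of the 3 main NT5E transcripts in TMM-scaled CPM; right, their share of NT5E reads in percent with 95% Wilson intervals, both against the HCC827 share of RNA mass. NT5E-202 climbs at every step, from 4.71% to 12.2% of NT5E reads.

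Isoform usage along the series was tested with edgeR's diffSpliceDGE for the 5 ligands with several tested transcripts. None was called by the Simes test at an adjusted p under 0.05, against 0.402% of 7455 genes. The unadjusted p was under 0.05 for 1 of the 5, NT5E, with a Simes p of 0.000218 and an adjusted p of 0.0524. The gene-level F test called NT5E (adjusted p = 0.0304), among 66 of 7455 genes. So did the Simes test with at least 10 reads in every library (adjusted p = 0.0407), among 21 of 5197. Without 1 library the Simes adjusted p of NT5E ran from 0.0844 to 0.943. For CD276, NECTIN2, PVR and CD47 the adjusted Simes p was 1. Of 19 ligand transcripts tested for a slope, 1 rose and 3 fell, against 33.6% of all transcripts called.

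The main CD276 transcripts stand for different parts of the gene. CD276-202 (534 codons) had 77, 106, 96, 84 and 65 reads. CD276-206, annotated as a target of nonsense-mediated decay, had 70, 109, 84, 68 and 63, and CD276-207, a retained-intron transcript, had 78, 111, 107, 71 and 54. All 3 end at base 73714514 of chromosome 15, and CD276-206 and CD276-207 cover only the 3′ part of the gene. Their shares in 100:0 were 30.7%, 27.9% and 31.1%, and no slope passed (adjusted p = 0.694, 0.919 and 0.550). Shorter reads of a longer transcript and reads of a shorter one cannot be told apart from these tables.

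Transcript length moved with the slopes in the whole data set. The median slope was 0.154 for tested transcripts under 1000 bases and -0.286 for those of 4000 bases or more. NT5E-202 has 974 bases, and 5.78% of transcripts under 1000 bases had a slope at least as large. With the length trend removed, the slope of NT5E-202 was 1.59 ± 0.32 (adjusted p = 0.000803). For whole genes under the same adjustment, PVR was at -0.42 (adjusted p = 0.0220) and NT5E at 0.44 (adjusted p = 0.0123). PVR-202, PVR-203 and CD47-201 also passed with the trend removed (adjusted p = 0.0434, 0.0179 and 0.0364).

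**Figure D4:**
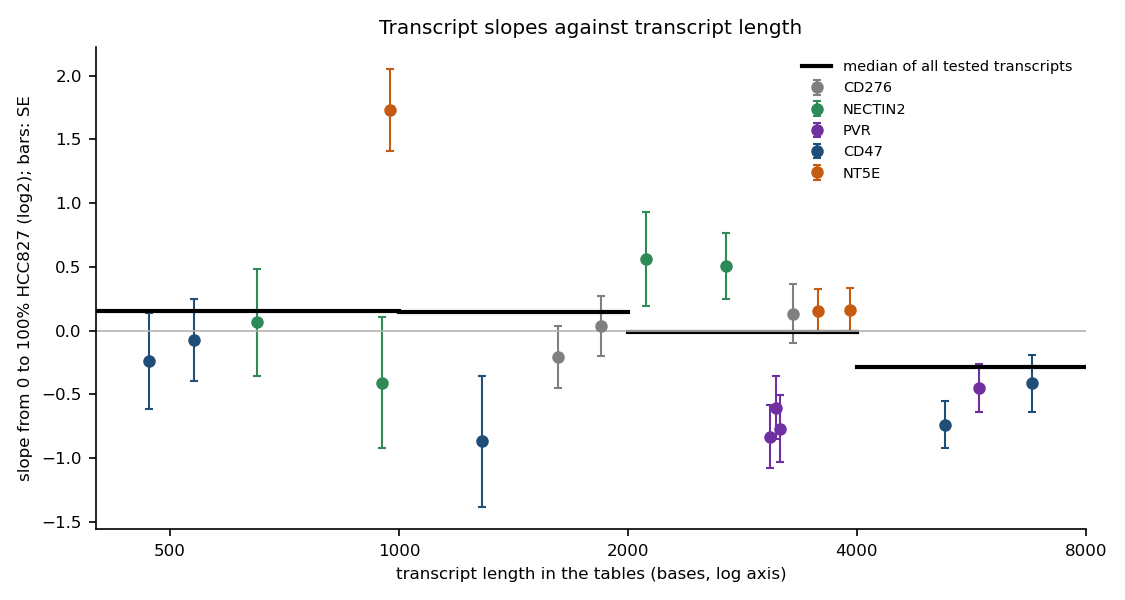
Slope of each tested ligand transcript, log2 from 0 to 100% HCC827 with SE bars, against its length in bases on a log axis. Black bars are the medians of all tested transcripts in 4 length classes, the last open above 4000 bases; NT5E-202 lies far above its class and the PVR transcripts lie below theirs.

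Of 26 other checkpoint ligands, 17 could be tested, of which 4 rose, 2 fell and 11 did not pass, with a median slope of 0.00. Against this list and those that follow stand the 45.7% of all genes tested that were called. HHLA2, a B7 family member, had 1, 18, 25, 34 and 47 reads and a slope of 3.55 ± 0.56. ICOSLG, the B7 ligand of the T cell costimulator ICOS, had 6, 17, 34, 23 and 41 reads and rose by 2.61 ± 0.48. CD40, a costimulatory receptor, fell by 3.16 ± 0.43, with 77, 59, 40, 15 and 3 reads. CD80 and CD86, the ligands of CTLA4, had no read in any library. The adjusted p values of the 3 named genes that moved were 0.000235, 0.000792 and 8.79e-05. All 3 kept their call in each of 14 alternatives.

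Among 6 other nectins and adhesion partners, 1 rose, 2 fell and 3 did not pass. NECTIN1 fell by 1.94 ± 0.32 (41.0, 29.6, 25.8, 19.9 and 6.79 CPM, adjusted p = 0.000327). NECTIN4, a target of antibody therapy in other cancers, fell by 0.68 ± 0.23 (adjusted p = 0.0272). CADM1, another adhesion molecule, rose by 1.57 ± 0.39 (adjusted p = 0.00559). The call on NECTIN4 was lost in 4 of 15 alternatives, and those on NECTIN1 and CADM1 in 1 and 2. Without 100:0 the slopes of NECTIN4 (-0.49, adjusted p = 0.286) and CADM1 (1.11, adjusted p = 0.0699) did not pass, nor did that of NECTIN4 without 0:100 (-0.57, adjusted p = 0.175).

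Of 8 partners of CD47, 6 fell, 1 rose and 1 did not pass, against 22.3% of all genes tested falling and 23.5% rising. SIRPA, the receptor that CD47 engages on macrophages, was read in the tumour lines at 97.2, 66.1, 40.9, 29.1 and 2.26 CPM, a slope of -3.27 ± 0.44 (adjusted p = 6.86e-05). THBS1, which encodes the secreted CD47 ligand thrombospondin, fell by 2.88 ± 0.34 (79.2 to 5.66 CPM in the pure libraries, adjusted p = 2.72e-05). ITGB3, the integrin chain that associates with CD47, fell by 3.0 ± 0.57 from 122 reads in 100:0 to 1 in 0:100 (adjusted p = 0.000892). The size of the ITGB3 slope depended on the ends of the series, at -1.97 without 0:100 and -4.20 without 100:0, and it was -6.19 with fitmixture, with the call kept in each. The SIRPA slope ran from -5.23 to -2.36 over the alternatives, and its call was lost with 2 libraries against 2 (adjusted p = 0.0543). Of the 10 listed receptors and binding partners of the ligands, SIRPA and THBS1 among them, 3 could be tested and 2 fell. TIGIT and PVRIG had no read.

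Genes known to act on CD274 moved both ways. Of 24, 23 were tested, of which 7 rose, 4 fell and 12 did not pass, with a median slope of 0.05. CMTM6, which keeps PD-L1 protein at the cell surface, fell by 1.59 ± 0.17, from 314 CPM in 100:0 to 102 in 0:100 (adjusted p = 1.56e-05). IFNGR1, a chain of the interferon gamma receptor, fell by 1.37 ± 0.28 (32.3 to 12.1 CPM, adjusted p = 0.00145). Its call was lost without 100:0 (slope -0.89, adjusted p = 0.0932) and with 2 libraries against 2 (adjusted p = 0.0743). RELA, a subunit of NF-kappaB, rose by 1.25 ± 0.15 (56.5 to 132 CPM, adjusted p = 3.06e-05). IRF1, a transcription factor of the interferon response, had a slope of 0.05 and did not pass.

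In the adenosine pathway around NT5E, 11 of 17 genes were tested, of which 3 rose, 4 fell and 4 did not pass. ENTPD1 (CD39), which makes the AMP that NT5E uses, had 18, 38, 17, 11 and 3 reads and a slope of -1.78 ± 0.68 (adjusted p = 0.0488). That call was lost in 8 of 14 alternatives, among them leaving out any one of the 4 libraries other than 100:0, and the slope was -0.98 without 0:100 and -3.24 without 100:0. ENTPD3, a related enzyme, fell by 2.88 ± 0.55 (11.1 to 0.755 CPM, adjusted p = 0.000969). SLC29A2, a nucleoside transporter, rose by 2.40 ± 0.29 (12.6, 36.9, 57.6, 66.3 and 99.2 CPM, adjusted p = 3.27e-05). Of 8 ligands of the natural killer receptor NKG2D, 5 were tested, and MICB rose by 2.78 ± 0.55, with 4, 20, 14, 26 and 35 reads (adjusted p = 0.00125), while the other 4 did not pass. With 2 libraries against 2 the calls on ENTPD3 (adjusted p = 0.0519) and MICB (adjusted p = 0.0568) were lost. Beside all these lists, the background is 45.7% of genes called.

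**Figure D5:**
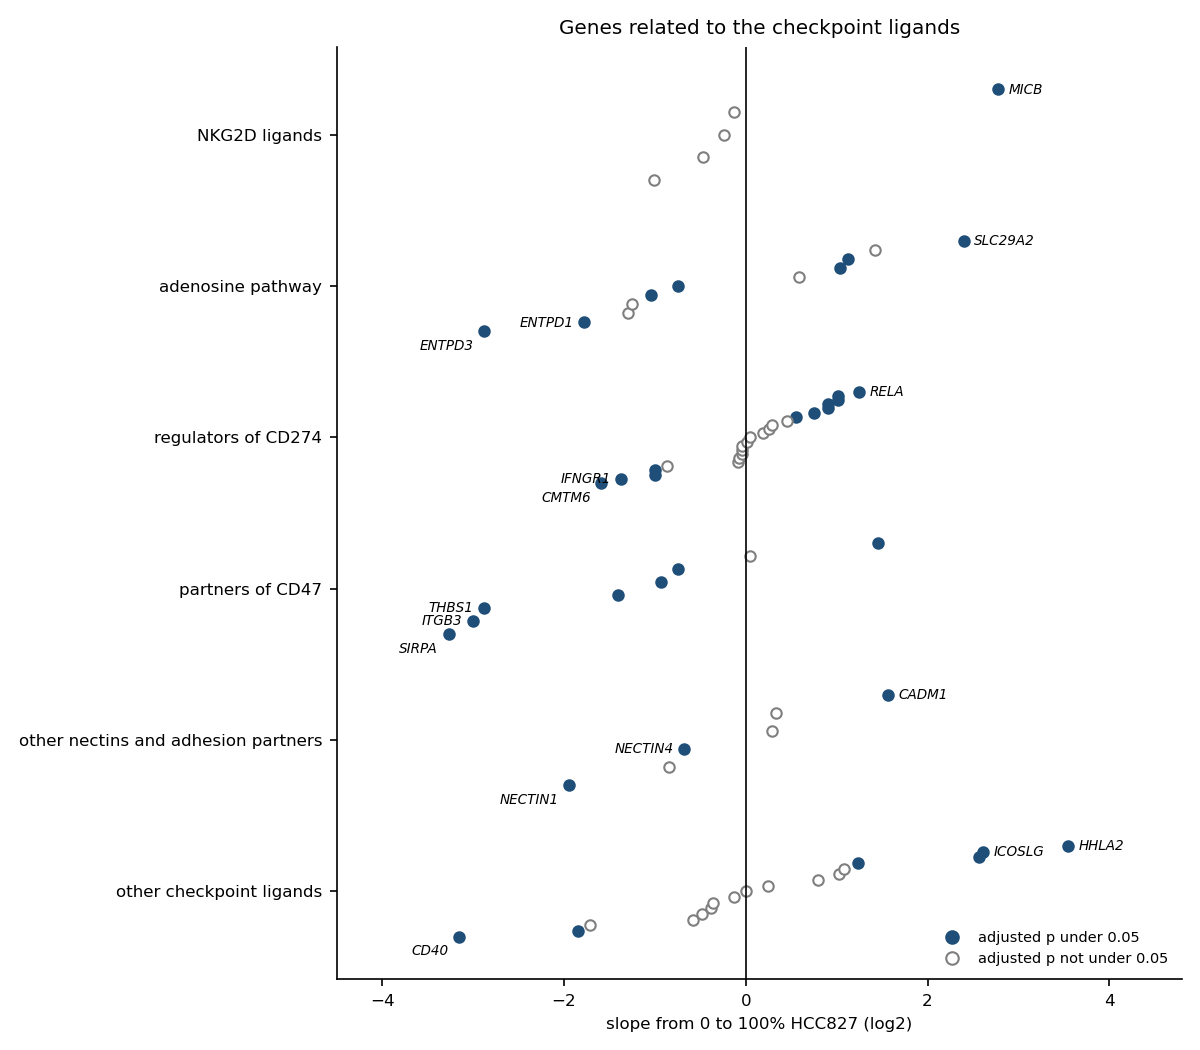
Slope of each tested gene in 6 related lists, log2 from 0 to 100% HCC827, filled where the adjusted p is under 0.05; the named genes are those with the largest absolute slopes in their list. SIRPA, THBS1 and ITGB3 lie at -2.88 or below and HHLA2 at 3.55, beyond the ligands' own range of -1.33 to 1.14.

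The genes around the ligands did not all move with them. Over all genes tested, 23.5% rose and 22.3% fell. Within 500 kb of CD47, 6 genes were tested, 4 fell and 1 rose. That one was HHLA2, at chr3:108296529-108378285, and MYH15 beside it had a slope of -2.45 ± 0.92 (adjusted p = 0.0427). Near NT5E, 3 genes were tested and 1 fell, SNHG5 (slope -2.73 ± 0.36, adjusted p = 6.44e-05). Near PVR, 26 genes were tested, with 7 rising and 6 falling. PVR and NECTIN2 lie in the same stretch of chromosome 19, and CEACAM19 (slope -3.58 ± 0.96, adjusted p = 0.00842, 29 reads) and ZNF180 (slope -2.39 ± 0.56, adjusted p = 0.00366) had the largest slopes near both. Near CD276, NPTN fell by 0.67 ± 0.21 (adjusted p = 0.0199) and PML rose by 0.90 ± 0.13 (adjusted p = 0.000112). Near VTCN1, IGSF3 (0.87 ± 0.30, adjusted p = 0.0326) and MAN1A2 (0.46 ± 0.16, adjusted p = 0.0350) rose. CD274 and PDCD1LG2 are neighbours, and PLGRKT (0.79 ± 0.21, adjusted p = 0.00903) was the only tested gene near them that was called.

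Some annotated genes overlap the ligands, and the use of strand in counting is not given in the sources used here. ENSG00000286162, a long noncoding gene on the opposite strand of CD274 and PDCD1LG2, had 48 reads, more than the 19 of PDCD1LG2. PVR overlaps CEACAM19 and ENSG00000279095 on its own strand, with 29 and 129 reads, and CEACAM16-AS1 on the other, with 14. NECTIN2 overlaps ENSG00000267282 on the other strand, with 5 reads. ENSG00000279095 had a slope of -0.11 ± 0.39 (adjusted p = 0.835). Some named related genes also overlap others. ENTPD1 (87 reads) overlaps ENTPD1-AS1 (89 reads) and ENTPD3 (99 reads) overlaps ENTPD3-AS1 (106 reads), both on the other strand.

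Profiles most like each abundant ligand were found by the root mean square difference of log2 levels, centred over the 5 libraries, among 8839 genes with at least 200 reads. For CD276 these were ERMP1 (0.0208) and PPM1B (0.0248), and for NECTIN2 they were GNB1L (0.0191) and ATP6V0A1 (0.0292). PVR was nearest to GRIPAP1 (0.0186) and SLC35A2 (0.0257), CD47 to MICA (0.0221) and ACAT1 (0.0243), and NT5E to CKAP2L (0.0102) and NADK (0.0183). Within 2 times the nearest distance lay 17 genes for CD276, 9 for NECTIN2, 8 for PVR, 15 for CD47 and 3 for NT5E. The likeness is a description over 5 libraries that share the same RNA mixing series.

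The start sites of 7 ligands were matched to RefSeq promoters (GRCh38.p14), each from 250 bases before to 50 after the start. The windows of CD47 and PVR, the ligands that fell, are printed to show how unlike they are in letters. CD47 (chr3:108090982-108091281, minus strand) was 79.0% G or C with 45 CG pairs, and PVR (chr19:44643660-44643959, plus strand) was 67.3% with 27, against medians of 58.7% and 14 over all promoters. Capitals mark matches to GGGCGG (the Sp1 box) or ACGTG (the hypoxia response core), searched on both strands.
CD47: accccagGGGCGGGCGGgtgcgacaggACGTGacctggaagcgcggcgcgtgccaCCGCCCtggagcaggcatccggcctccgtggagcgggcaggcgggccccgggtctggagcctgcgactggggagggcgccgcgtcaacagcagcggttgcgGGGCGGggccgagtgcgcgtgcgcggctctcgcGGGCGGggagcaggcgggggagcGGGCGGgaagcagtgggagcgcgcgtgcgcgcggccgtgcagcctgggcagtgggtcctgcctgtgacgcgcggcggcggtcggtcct
PVR: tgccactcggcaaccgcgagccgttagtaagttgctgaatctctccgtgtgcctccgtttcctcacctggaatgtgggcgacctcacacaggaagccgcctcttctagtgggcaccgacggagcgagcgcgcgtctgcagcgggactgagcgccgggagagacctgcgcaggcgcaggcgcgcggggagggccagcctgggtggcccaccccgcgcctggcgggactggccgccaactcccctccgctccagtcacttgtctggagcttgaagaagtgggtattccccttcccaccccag
GGGCGG was in 45.0% and ACGTG in 21.4% of 35116 promoters. The other motifs searched on both strands were the interferon response motif GAAANNGAA (in 8.11% of promoters), the STAT motif TTCNNNGAA (7.66%), the AP-1 motif TGANTCA (7.71%), the cAMP response core TGACGT (7.98%) and the core promoter box TATAAA (11.5%). The PVR window held none of the 7, and the CD47 window held 6 GGGCGG, of which a pair overlap, and 1 ACGTG. CD274 held 2 GAAANNGAA, which overlap, and 1 TTCNNNGAA, NT5E 1 TGACGT, NECTIN2 2 overlapping TGACGT and VTCN1 1 TGANTCA. The Sp1 box was also in the windows of CD276, NECTIN2, NT5E and CD274, and ACGTG in one of the 2 CD276 windows. These are matches of letters and not measured sites.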

How the data were processed

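The deposited tables, 1 per library, give for every transcript its identifier, length and estimated count. The authors' values were unscaled, and 2 that were not whole were rounded. Minimap2 2.24, Salmon 1.9.0 and GRCh38 are named, per the submitters' processing notes. The division of reads between similar transcripts is not given in the sources used here, so all transcript reads and shares are estimates. Identifiers listed again (161) were summed. Human transcripts were paired with genes through GENCODE v44, which may differ from the authors' release, and 98.63% of human reads matched. In the tables CD47-202 has a length of 1285 bases, and in GENCODE v44 it has 5292.

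Slopes were fitted over the 5 libraries with edgeR 4.0.16 (R 4.3.3), TMM scaling and a filter of 10 reads in 2 or more libraries. Adjustment (Benjamini-Hochberg) ran over all features tested, with 0.05 as the threshold. SE was taken as slope over root F. No ratio was replicated, so pure libraries were compared by exact intervals without a test. PCR copies had no molecular identifiers, so intervals cover counting error only. On simulated data the slope test (13139 genes) recovered 85 of 194 changed genes with 6 false calls, and the usage test (2000 genes) 88 of 100 with 0. The simulation had a fixed dispersion and few changed genes, whereas 45.7% of genes were called in these data. Its usage test was given a single size of change. These rates need not hold for the calls above. Alternatives were DESeq2 1.42.0 (size factors and Wald test), library totals, limma-voom 3.58.1, fitmixture, 2 NCI-H1975-rich against 2 HCC827-rich libraries, protein-coding transcripts alone, other read filters and leaving out each library. Those on transcript length, on NT5E-202 and on single transcripts were added after seeing the data.

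The members and lists were chosen with earlier results of these data known. Named were all members, up to 3 called genes of largest slope in each list (with IRF1, EPCAM and genes without reads added after their values were seen), up to 2 called neighbours within 500 kb, tested overlapping genes, the 2 nearest profiles of each member with at least 200 reads (pseudocount 0.5) and transcripts with at least 5% of a member's reads (CD274, VTCN1 and PDCD1LG2 in less detail).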

Additional observations from a re-analysis of the deposited data

How the results depend on the processing

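With 5 unreplicated libraries, the depth limits CD274, VTCN1 and PDCD1LG2 most. Over the alternatives 138 values kept their direction and their side of the threshold or moved little, 25 lost the threshold, 2 gained it, 10 changed sign and 9 without a test moved. No paired analysis was possible because each ratio had 1 library. On library totals 26% of called genes rose, against 51.3% on TMM. There the slopes were -1.74 for CD274, which then passed, -0.39 for CD276, -0.0068 for NECTIN2 and -0.062 for NT5E, and the log2 ratios of the pure libraries were -0.411 for CD276, -0.021 for NECTIN2, -0.955 for PVR, -1.007 for CD47 and -0.046 for NT5E. The slope of CD276 was also below 0 without a read filter (-0.0092), with 10 reads in every library (-0.036) and with the length trend removed (-0.063). The call on PVR was lost with fitmixture (-0.54) and with 2 libraries against 2 (-0.44). That on CD47 was lost with the DESeq2 Wald test (-0.47), fitmixture (-0.47), 2 against 2 (-0.31) and the length trend removed (-0.32). That on NT5E was lost without a read filter (0.32), with 10 reads in every library (0.30), the Wald test (0.37), fitmixture (0.34), 2 against 2 (0.25) and without NT5E-202 (0.23). With the Wald test the calls on PVR-202 (-0.75) and PVR-203 (-0.83) were lost. The number of members called was 3, but 1 with the Wald test, 0 with fitmixture and 0 with 2 against 2. Of 13492 genes in all, these settings called 4791, 6191 and 2287. For isoform usage, 1 member was called by the F test and 1 with 10 reads in every library. Leaving out each library in turn gave slopes of -2.37 to -0.87 for CD274 (the first without 100:0, where it passed), -0.12 to 0.17 for CD276, 0.35 to 0.48 for NECTIN2, 0.90 to 1.53 for VTCN1, -0.73 to -0.42 for PVR, -0.57 to -0.26 for CD47 and 0.22 to 0.44 for NT5E. Those of the transcripts were -0.83 to -0.61 for CD47-201, -1.09 to -0.55 for PVR-202, -1.22 to -0.71 for PVR-203 and 1.65 to 1.77 for NT5E-202. The members called then numbered 1 (without 0:100, where 4068 genes were called in all) to 3, and 0 were called for usage. The cause of these changes was not tested.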
